A study of Homo sapiens with 3 samples.

Results

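Integrin alpha subunits were followed in PC-3 cells, an established line from a human prostate cancer. The 10 genes ITGA1, ITGA2, ITGA3, ITGA4, ITGA5, ITGA6, ITGA7, ITGA10, ITGAE and ITGAV were taken by symbol from the integrin alpha family. The choice was made with earlier results of these data known. They were found by Entrez identifier among the 18331 genes listed in any library. All 10 were listed in all 3 libraries and passed the filter on low counts. In the filter ITGA4 passed through the libraries labelled KMT2D shRNA alone, since its control count lay under the limit of 1.94 counts per 1000000 of the library total, while the others passed in both groups. Levels are given below as CPM, the same measure on TMM-scaled library sizes. Messenger RNA was sequenced 7 days after cells were infected with a lentivirus carrying a short hairpin RNA (shRNA). Of the 2 groups, KMT2D shRNA (labelled as KMT2D deficient) had 2 libraries, titled KMT2D shRNA1 and KMT2D shRNA2 and numbered 1 and 2 below. The control shRNA group (labelled as KMT2D normal) had 1 library. Both groups were grown in the same serum-containing medium and both carried a lentivirus. The labels do not say whether the KMT2D libraries came from separate cultures or from different hairpins. The p-values therefore measure only the spread between these libraries, which may be technical. In the main test that spread was pooled across all tested genes, since each gene left 1 residual degree of freedom. A gene's p is thus not a measure of its own scatter alone.

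Integrins are cell surface receptors made of 1 alpha and 1 beta chain. The alpha chain largely sets which ligand is bound: ITGA1, ITGA2 and ITGA10 pair with ITGB1 to bind collagens, ITGA3, ITGA6 and ITGA7 bind laminins, and ITGA5 and ITGAV bind matrix proteins with the tripeptide RGD, such as fibronectin. ITGA4 binds VCAM1 and fibronectin on leukocytes and some other cells, and ITGAE, which pairs with ITGB7, lets T cells bind E-cadherin on epithelium. In prostate epithelium the laminin receptor made of ITGA6 and ITGB4 anchors basal cells to the basement membrane.

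Facts of the whole series that bear on these genes are as follows. Library totals were 5157482 and 5123794 estimated counts for KMT2D shRNA libraries 1 and 2, and 5559449 for the control library. The targeted gene KMT2D was at 107 and 138 CPM in the libraries labelled KMT2D shRNA, against 100.1 CPM in the control library, higher in both and not past the test (fitted log2 change 0.29 with SE 0.18, edgeR adjusted p = 0.227). Its direction depends on the processing: KMT2D, one of the longest transcripts at 19432 bases, was lower with the trend of fold change on transcript length removed (log2 change -0.66 with SE 0.18, edgeR adjusted p = 0.0129). With trends on length and on GC content both removed, it was at -0.50 and did not pass (edgeR adjusted p = 0.083). With the trend on GC content alone removed, it was at 0.47 and did not pass (edgeR adjusted p = 0.0608). Directions are therefore given for the libraries labelled KMT2D shRNA and not for a loss of KMT2D. The control library stood apart in interferon-induced genes: ISG15, IFIT1, MX1, OASL, BST2 and IFI6 summed to 283 and 266 CPM in the labelled libraries and to 9343 CPM in the control library. The epithelial markers KRT8, KRT18, KRT19, EPCAM and CDH1 were all present, summing to 836 and 881 CPM in the labelled libraries and 1432 CPM in the control library. Of these 5 genes, 3 were called lower by the test described below, when 14.5% of all tested genes were. With the length trend removed 1 of 5 was called lower, when 8.92% of all tested genes were. CDH1, the longest of them at 4815 bases, lay higher in both labelled libraries and did not pass. The leukocyte markers summed to 4.59 and 4.93 CPM in the labelled libraries and to 5.81 CPM in the control library (5 listed genes), and the platelet markers to 6.69 and 10.1 against 5.63 CPM (3 genes, with GP9 not listed). Of the 6 fibroblast and smooth muscle markers only COL1A1 exceeded 3 CPM, and their sum was 378 and 388 CPM in the labelled libraries and 401 CPM in the control library. The endothelial markers summed to 135 and 102 CPM in the labelled libraries and to 69.0 CPM in the control library, with VWF and CDH5 not listed (4 genes). Whether the interferon state or these marker sums had a part in the results for integrins was not tested.

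Promoter sequence was matched in RefSeq (GRCh38.p14) for 8 of the 10 genes, and 3 promoters are shown because the transcripts of ITGA1 and ITGA2 rose and that of ITGA5 fell. Each runs 5′ to 3′ on the gene's own strand, from 250 bases before the annotated start to 30 bases after it. The windows are chr5:52787666-52787945 on the plus strand for ITGA1, chr5:52989102-52989381 on the plus strand for ITGA2 and chr12:54419237-54419516 on the minus strand for ITGA5. Capitals mark matches, on either strand, to any of 6 motifs: the AP-1 motif TGAGTCA, the E-box CACGTG, the GC box GGGCGG, the CCAAT box, the TATA box TATAAA and the TEAD motif GGAATG.
ITGA1: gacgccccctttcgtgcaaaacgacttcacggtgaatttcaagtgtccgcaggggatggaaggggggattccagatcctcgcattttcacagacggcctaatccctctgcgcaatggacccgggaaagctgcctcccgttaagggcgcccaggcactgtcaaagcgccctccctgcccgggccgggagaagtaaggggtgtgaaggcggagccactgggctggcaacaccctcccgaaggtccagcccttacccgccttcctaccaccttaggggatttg
ITGA2: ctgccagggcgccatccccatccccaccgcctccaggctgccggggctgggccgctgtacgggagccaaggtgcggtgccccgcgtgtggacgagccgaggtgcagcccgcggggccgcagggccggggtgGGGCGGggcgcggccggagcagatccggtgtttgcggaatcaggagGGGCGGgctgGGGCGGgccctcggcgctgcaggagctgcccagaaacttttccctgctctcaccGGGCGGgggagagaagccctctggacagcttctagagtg
ITGA5: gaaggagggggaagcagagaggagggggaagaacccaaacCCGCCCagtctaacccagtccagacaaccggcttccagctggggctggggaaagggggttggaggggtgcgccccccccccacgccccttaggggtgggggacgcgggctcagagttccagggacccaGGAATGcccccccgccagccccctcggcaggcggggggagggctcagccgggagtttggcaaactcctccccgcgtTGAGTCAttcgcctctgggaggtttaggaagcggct
The ITGA2 window held 4 GC boxes, a motif found in 44.1% of 35116 promoter windows of this length. The ITGA5 window held 1 AP-1 motif, found in 4.73% of all windows, beginning 6 bases before the start, as well as 1 GC box and 1 TEAD motif, the last found in 13.3%. The ITGA1 window held none of the 6 motifs. G and C made up 61.4% of the ITGA1 window, 73.9% of the ITGA2 window and 68.6% of the ITGA5 window, against a median of 58.2% over all windows. A match is a run of letters and not a shown binding site.

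Among the 10 genes, 5 rose and 2 fell in the libraries labelled KMT2D shRNA, and 3 did not pass the test. One of the 5, ITGA4, entered the test only through the libraries in which it was high, so its call adds no support to that count. ITGA4, ITGA1, ITGA6, ITGAV and ITGA2 rose, by log2 fold changes between 0.85 and 2.31, while ITGA3 and ITGA5, the most abundant alpha subunits of the control library, fell by 0.66 and 0.67 in log2 units. The test was edgeR's quasi-likelihood test with Benjamini-Hochberg adjustment over all 14016 tested genes at a threshold of 0.05. It called 31.1% of all tested genes, 16.5% as higher and 14.5% as lower, so a large part of the transcriptome passed. The median log2 fold change of the 10 genes was 0.58, or 0.61 in library 1 and 0.53 in library 2, against -0.01 over all tested genes. Of the 8 human alpha genes outside the 10, 2 were tested, ITGA2B and ITGAX, and 0 passed. No SD can be given for the control, which had no replicate, and the fit took its spread to equal that of the labelled libraries.

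**Figure D1:**
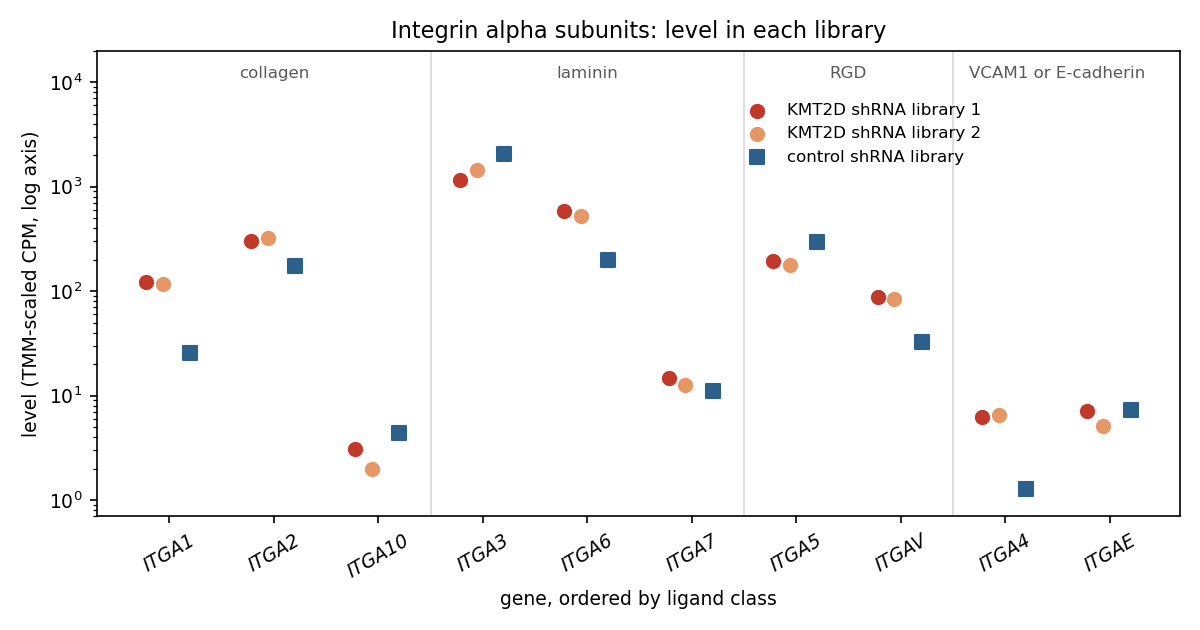
Level of each integrin alpha subunit in CPM (log axis) in KMT2D shRNA libraries 1 and 2 and the control shRNA library, ordered by ligand class. ITGA1, ITGA2, ITGA6, ITGA7, ITGAV and ITGA4 lie higher in both labelled libraries than in the control library, and ITGA3, ITGA5, ITGA10 and ITGAE lie lower in both.

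The collagen receptors ITGA1 and ITGA2 rose. ITGA1 (Entrez gene 3672) had 121 and 118 CPM in the libraries labelled KMT2D shRNA, from 635 and 597 counts, against 25.8 CPM in the control library, from 142 counts. Both labelled libraries lay far above the control library and close to each other. ITGA1 averaged 119.5 ± 2.63 CPM (SD, n = 2) in the labelled libraries, and its fitted log2 change was 2.21 with an SE of 0.20 (edgeR adjusted p = 2.8e-12). ITGA2 (Entrez gene 3673), which pairs with ITGB1 as the receptor for collagen on platelets and epithelia, had 304 and 321 CPM in the labelled libraries and 174 CPM in the control library. It averaged 313 ± 12.0 CPM (SD, n = 2) in the labelled libraries, and its fitted log2 change was 0.85 with an SE of 0.17 (edgeR adjusted p = 0.000164). The call of ITGA2 was lost with the trend of fold change on transcript length removed, where its log2 change was 0.33 (edgeR adjusted p = 0.185). ITGA10 (Entrez gene 8515), a collagen receptor known from cartilage, was near the detection limit, with 16 and 10 counts in the labelled libraries and 24 counts in the control library. At 3.06 and 1.97 CPM in the labelled libraries and 4.36 CPM in the control library it did not pass (fitted log2 change -0.78 with SE 0.54, edgeR adjusted p = 0.285).

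The size of the ITGA1 change may depend on how reads were divided between overlapping genes, and how far it does was not tested. PELO, which encodes a ribosome rescue factor, lies inside ITGA1 on the same strand and shares 475 exonic bases with it in GENCODE. The estimated counts of ITGA1 were 634.9 and 596.89 in the labelled libraries and 142.19 in the control library, although the file gives it a single transcript. Those of PELO were 223.1 and 264.11 in the labelled libraries and 357.81 in the control library. Added together the pair came to whole numbers in every library within 0.01, at 858 and 861 counts in the labelled libraries and 500 counts in the control library. ITGA1 held 74.0% and 69.3% of the pair's counts in the labelled libraries and 28.4% in the control library. Counted as 1 gene, a choice made after seeing the data, the pair was at 164 and 169.7 CPM in the labelled libraries and 90.8 CPM in the control library. The pair's log2 fold change was then 0.88 and passed (edgeR adjusted p = 0.000162). The pair was fitted with no trend removed, so whether its call would hold with the length trend removed was not tested. PELO alone did not pass (fitted log2 change -0.46 with SE 0.18, edgeR adjusted p = 0.0518). How many of the reads were shared is not given in the files, so the size of the rise of ITGA1 itself is uncertain.

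The laminin receptors moved in opposite directions. ITGA3 (Entrez gene 3675), the main laminin-332 receptor of epithelial cells with ITGB1, had 1156 and 1439 CPM in the labelled libraries and 2049.9 CPM in the control library. Both labelled libraries were lower than the control library, library 1 more so. ITGA3 averaged 1298 ± 200 CPM (SD, n = 2) in the labelled libraries, and its fitted log2 change was -0.66 with an SE of 0.15 (edgeR adjusted p = 0.000648). The call of ITGA3 was lost without a filter on low counts (edgeR adjusted p = 0.0608) and with limma on FPKM (adjusted p from 0.0678 to 0.233). ITGA6 (Entrez gene 3655), which pairs with ITGB1 or with ITGB4 in hemidesmosomes, had 579.7 and 528 CPM in the labelled libraries and 198 CPM in the control library. It averaged 554 ± 36.9 CPM (SD, n = 2) in the labelled libraries, and its fitted log2 change was 1.48 with an SE of 0.18 (edgeR adjusted p = 4.45e-09). ITGA7 (Entrez gene 3679), the laminin receptor of skeletal muscle, had 14.9 and 12.6 CPM in the labelled libraries and 11.1 CPM in the control library. ITGA7 did not pass (fitted log2 change 0.31 with SE 0.29, edgeR adjusted p = 0.436). Its counting intervals against the control, 0.950 to 1.91 as a ratio in library 1 and 0.789 to 1.64 in library 2 (95%, exact, counting error only), each hold a ratio of 1.

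The RGD receptors also moved in opposite directions. ITGA5 (Entrez gene 3678), the fibronectin receptor subunit, had 194 and 179 CPM in the labelled libraries and 297 CPM in the control library. It averaged 187 ± 11.1 CPM (SD, n = 2) in the labelled libraries, and its fitted log2 change was -0.67 with an SE of 0.17 (edgeR adjusted p = 0.0015). With limma on FPKM the call of ITGA5 was lost (adjusted p from 0.0532 to 0.181). ITGAV (Entrez gene 3685), which pairs with several beta chains to bind vitronectin, fibronectin and latent TGF-beta, had 87.9 and 84.7 CPM in the labelled libraries and 32.9 CPM in the control library. The labelled libraries lay close together and above the control library. ITGAV averaged 86.3 ± 2.25 CPM (SD, n = 2) in the labelled libraries, and its fitted log2 change was 1.39 with an SE of 0.19 (edgeR adjusted p = 2.06e-07).

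The subunits known mainly from leukocytes were scarce. ITGA4 (Entrez gene 3676) had 33 counts in each labelled library and 7 counts in the control library, or 6.31 and 6.503 CPM against 1.27 CPM. Its fitted log2 change was 2.31 with an SE of 0.56 (edgeR adjusted p = 0.00128), a p that is given as a description, since ITGA4 passed the filter only in the labelled libraries. The counting interval of the ITGA4 ratio to the control ran from 2.16 to 13.3 in library 1 and from 2.23 to 13.7 in library 2 (95%, exact, counting error only), so the size of its rise was poorly set at this depth. The call of ITGA4 was lost with length and GC trends both removed (edgeR adjusted p = 0.0506) and with limma on FPKM (adjusted p from 0.0573 to 0.174). ITGAE (Entrez gene 3682) had 37 and 26 counts in the labelled libraries and 40 counts in the control library, and did not pass (fitted log2 change -0.25 with SE 0.38, edgeR adjusted p = 0.657). HASPIN, a mitotic histone kinase gene on the opposite strand within ITGAE, shares 427 exonic bases with it, and no strand-marking step is named in the protocol. HASPIN had 9.37 and 10.6 CPM in the labelled libraries and 3.996 CPM in the control library (fitted log2 change 1.32 with SE 0.38, edgeR adjusted p = 0.00681), the other direction from ITGAE. The pan-leukocyte marker PTPRC was at 1.34 and 2.17 CPM in the labelled libraries and at 1.27 CPM in the control library.

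Per transcript length, the family was led by ITGA3 in every library, and its lead was smaller in the labelled libraries. On the deposited FPKM scale (fragments scaled by transcript length and library total), ITGA3 was at 231 and 280.3 FPKM in the labelled libraries and at 398 FPKM in the control library. That was 49.7% and 56.5% of the summed FPKM of all 18 human alpha subunit genes in the labelled libraries and 73.7% in the control library. ITGA6 took 21.8% and 18.1% in the labelled libraries and 6.26% in the control library. In the order of FPKM levels ITGA3, ITGA6, ITGA5, ITGA2, ITGA1 and ITGAV came first in both labelled libraries, whereas in the control library ITGA5 stood above ITGA6. ITGA5 and ITGA2 had close levels in library 2, at 41.2 and 40.2 FPKM. The ratio of ITGA3 to ITGA6 in FPKM was 2.28 and 3.13 in the labelled libraries and 11.8 in the control library. The ratio of ITGA5 to ITGAV was 3.63 and 3.47 in the labelled libraries and 14.4 in the control library.

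Summed by ligand class, the collagen receptors made up 14.0% and 13.0% of alpha subunit FPKM in the labelled libraries and 5.18% in the control library. The laminin receptors made up 72.2% and 75.1% in the labelled libraries and 80.5% in the control library, and the RGD receptors, ITGA2B and ITGA8 included, 13.0% and 11.3% against 13.8%. The whole family summed to 465 and 496 FPKM in the labelled libraries and to 540.3 FPKM in the control library, which held the highest sum. The collagen share includes ITGA1 as divided from PELO by the authors' processing. ITGA2 made up 8.39% and 8.10% of alpha subunit FPKM in the labelled libraries and 4.05% in the control library. The call of ITGA2 was lost with the length trend removed, and the shares here were not adjusted for that trend. Of the 8 alpha genes outside the 10, ITGA9, ITGA11 and ITGAD were not listed, ITGA8 had 1 count in 1 library, and ITGAL, ITGAM and ITGAX were at or under 0.44 FPKM in every library. ITGA2B, the platelet fibrinogen receptor subunit, was at 1.91 and 2.91 FPKM in the labelled libraries and 1.61 FPKM in the control library and did not pass (edgeR adjusted p = 0.276).

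**Figure D2:**
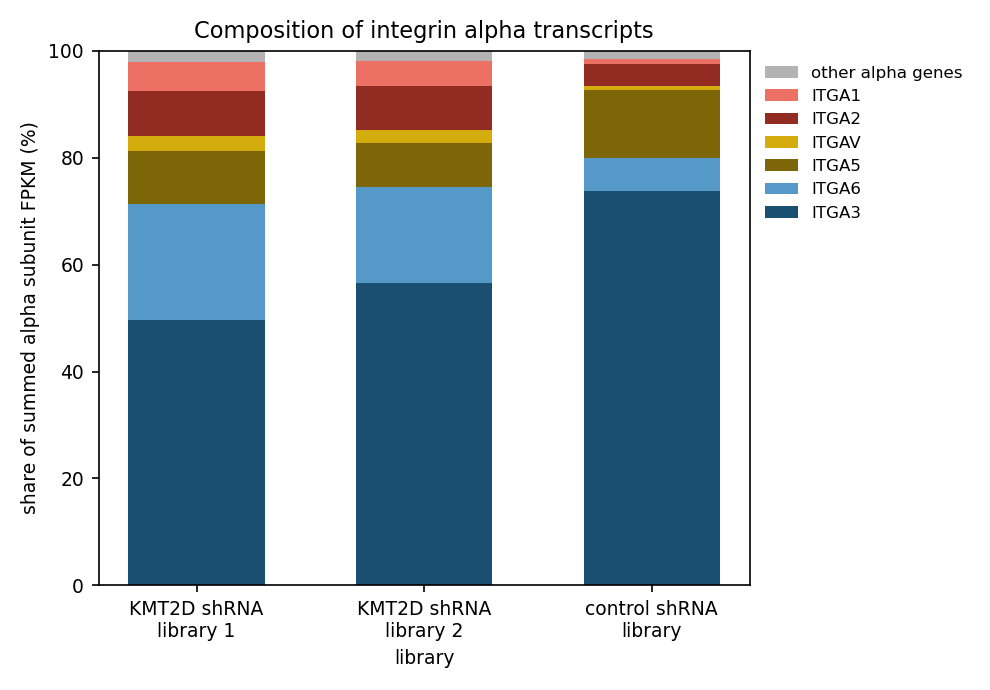
Share of the summed FPKM of all integrin alpha genes (percent) held by each gene in KMT2D shRNA libraries 1 and 2 and the control shRNA library. ITGA3 holds 49.7% and 56.5% in the labelled libraries and 73.7% in the control library, and the shares of ITGA6, ITGA2, ITGA1 and ITGAV are larger in both labelled libraries.

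Fold change followed transcript length across all genes, and integrin alpha transcripts are long. Spearman's coefficient between length and log2 fold change was 0.456 in library 1 and 0.460 in library 2 over 14016 genes, and 0.031 between length and the log2 fold change of library 1 over library 2. These genes share the same libraries and are not independent replicates. The median length of the 10 genes was 5116 bases, against 2963 bases for all tested genes, with ITGAE the shortest at 3878 bases and ITGA2 the longest at 7805 bases. Each gene was therefore set beside the 200 tested genes, other members left out, that were closest to it in length.

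ITGA1 lay above all 200 of its neighbours in length, whose median log2 fold change was 0.27 and of which 32.5% were called higher. The pair of ITGA1 and PELO, at 0.88, was 0.61 above that median. Those neighbours match ITGA1 in length, at 4811 bases, and not PELO, at 2941 bases. ITGA1 held 28.4% of the pair's counts in the control library, so the pair's value is not one of ITGA1 alone. ITGA6 had 4 neighbours above it and ITGAV had 9, with neighbour medians of 0.33 and 0.55. ITGA4 had 1 neighbour above its fitted change, or 3 in library 1 and 0 in library 2, with a neighbour median of 0.45. Its place is a description only, since ITGA4 passed the filter only in the labelled libraries. ITGA2 lay closer to its neighbours: their median was 0.56, 48% of them were called higher, and 54 of 200 stood above it. ITGA3 and ITGA5 fell where most genes of their length did not: 191 of 200 neighbours stood above each of them, the neighbour medians were 0.30 and 0.18, and 2.5% and 4.5% of the neighbours were called lower. ITGA7 was 0.12 above the median of its neighbours. ITGAE was 0.47 below and ITGA10 1.10 below the medians of theirs, though neither passed the test of its own change.

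**Figure D3:**
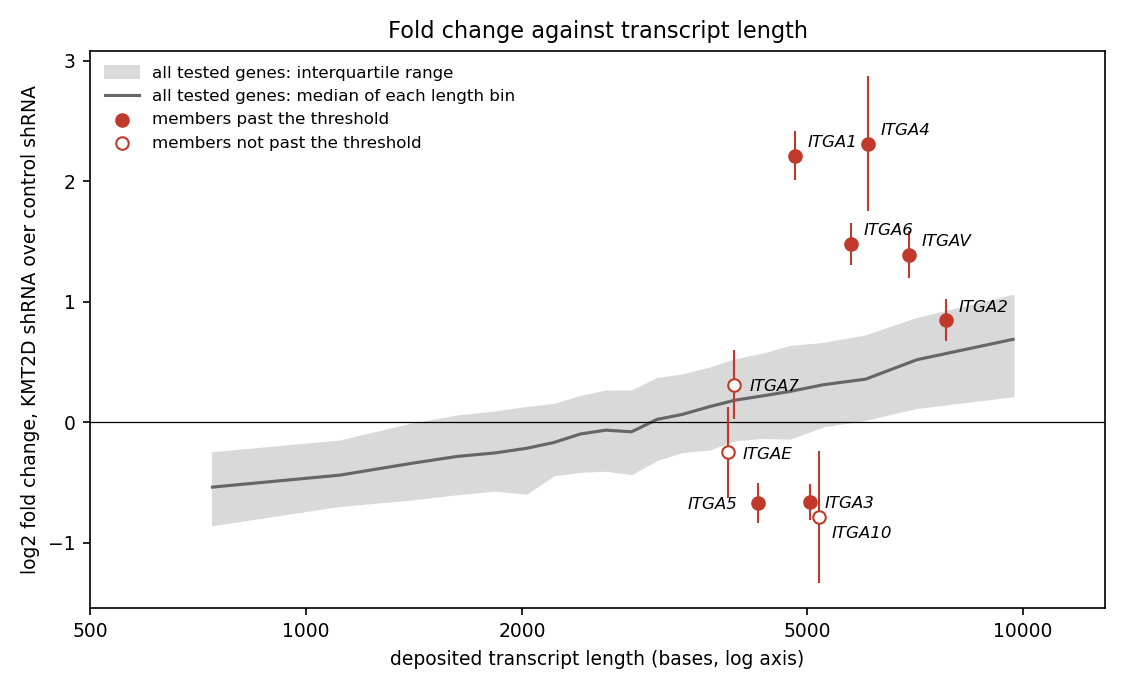
Log2 fold change (KMT2D shRNA over control shRNA) against deposited transcript length in bases (log axis). Red points are the 10 integrin alpha genes with SE bars, filled where edgeR's adjusted p is under 0.05, and the grey line and band are the median and interquartile range of all tested genes in 20 length bins. ITGA1, ITGA4, ITGA6 and ITGAV lie above the band, ITGA2 and ITGA7 inside it, and ITGA3, ITGA5 and the open points of ITGA10 and ITGAE below it.

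With the trend of fold change on length removed from each library, 4 of the 10 genes, ITGA4 again among them, rose and 2 fell, when 17.3% of all tested genes passed, 8.36% higher and 8.92% lower. ITGA1 was at 1.95 (SE 0.20, edgeR adjusted p = 1.5e-07), ITGA4 at 1.93 (SE 0.55, edgeR adjusted p = 0.0187), ITGA6 at 1.12 (SE 0.17, edgeR adjusted p = 6.95e-05) and ITGAV at 0.94 (SE 0.19, edgeR adjusted p = 0.00115). The value of ITGA1 rests on its counts as divided from PELO, and the pair was not fitted in this setting. The rise of ITGA2 was lost, at 0.33 (SE 0.17, edgeR adjusted p = 0.185). The falls of ITGA3 and ITGA5 were larger, at -0.94 (edgeR adjusted p = 0.000229) and -0.88 (edgeR adjusted p = 0.000542). With the GC trend alone removed these 2 falls were smaller, at -0.45 and -0.50 (edgeR adjusted p = 0.0291 and 0.0288). With both trends removed they were at -0.81 and -0.75 (edgeR adjusted p = 0.0112 and 0.0179). The median of the 10 genes was 0.24 with the length trend removed. The removal takes out any change that goes with length, whatever its source.

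**Figure D4:**
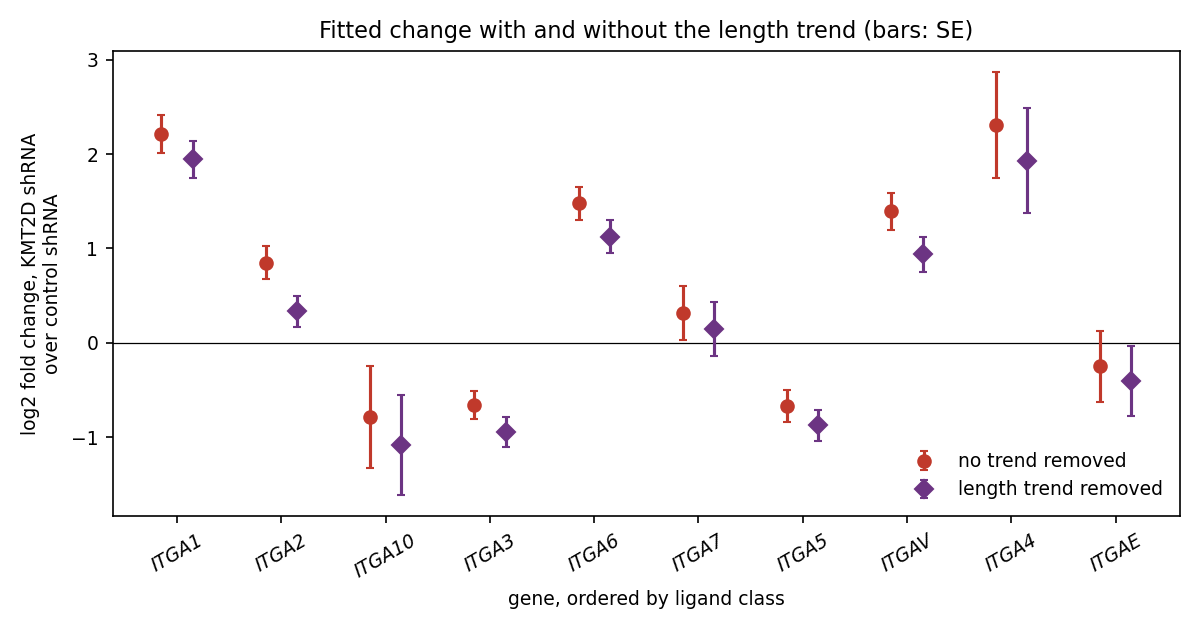
Fitted log2 fold change of each gene (KMT2D shRNA over control shRNA, bars SE) with no trend removed and with the length trend removed. ITGA2 moves nearest to 0 among the genes that had passed, and ITGA3 and ITGA5 move further below 0.

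The deposited lengths themselves differed between libraries for genes with several transcripts, for which the length is a mean over transcripts. All 5 members with such differences had a longer mean length in both labelled libraries. For ITGA6 it was 5763 and 5780.4 bases in the labelled libraries and 5736 bases in the control library, for ITGAV 6989.7 and 7006 against 6800.2 bases, and for ITGA2 7835 and 7833 against 7748 bases. The ITGA7 mean was 3971 and 4122 bases in the labelled libraries and 3779.8 bases in the control library, on few counts, and that of ITGA3 differed by under 1 base. Among the 5417 tested genes with differing lengths, 48% were longer in both labelled libraries and 22.3% shorter in both, so a longer mean length was common. Which transcripts made the difference is not given in the files.

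The partners and ligands of these receptors were taken from lists. Of 8 beta subunits 7 were tested, 3 rose and 1 fell. ITGB1, the partner of most of the 10 alpha chains, had 2414 and 3404 CPM in the labelled libraries and 1260.5 CPM in the control library (fitted log2 change 1.21 with SE 0.17, edgeR adjusted p = 1.43e-07). ITGB3, a partner of ITGAV, rose to 6.499 and 4.93 CPM in the labelled libraries, against 2.18 CPM in the control library (fitted log2 change 1.38 with SE 0.51, edgeR adjusted p = 0.0359). After removal of the length trend ITGB3 no longer passed (edgeR adjusted p = 0.14). ITGB7, the partner of ITGAE and of ITGA4, fell to 1.72 and 0.788 CPM in the labelled libraries, against 8.17 CPM in the control library (fitted log2 change -2.67 with SE 0.53, edgeR adjusted p = 9.58e-05). ITGB7 had 9 and 4 counts in the labelled libraries and 45 counts in the control library, and passed the filter only through the control library, where it is high, so its p is a description. ITGB4, the partner of ITGA6 alone, did not pass (fitted log2 change -0.07 with SE 0.17, edgeR adjusted p = 0.775). Among ligands, 4 of 9 tested collagen genes, 5 of 8 laminin genes and 5 of 8 RGD or alpha4 ligand genes rose and 0 fell, and the list medians of log2 fold change were 0.44, 0.61 and 0.90. These transcripts are long, with list median lengths of 6264, 5842 and 5862 bases, and among the 200 genes closest to ITGA4 in length, at 6082 bases, 39.5% were called higher. With the length trend removed the list medians were 0.04, 0.20 and 0.43. The microfibril collagen COL6A3 rose by 2.33 on the log2 scale (edgeR adjusted p = 1.05e-14), the laminin chain LAMA4 by 1.37 (edgeR adjusted p = 5.46e-05) and fibronectin, FN1, by 2.22 (edgeR adjusted p = 1.38e-14). The E-cadherin gene CDH1, whose product ITGAE binds, did not pass (log2 fold change 0.51, edgeR adjusted p = 0.128), and the ITGA4 ligand VCAM1 had at most 2 counts in a library.

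Of 23 activators and adaptors that link integrins to actin or switch them on, 9 rose and 1 fell, and the list median of log2 fold change was 0.33. The kindlin FERMT1 rose by 1.27, the parvin PARVA by 1.18 and the talin TLN2 by 0.98 on the log2 scale (edgeR adjusted p = 6.12e-07, 3.27e-06 and 0.00156). With the length trend removed the call of TLN2 was lost, at 0.26 (edgeR adjusted p = 0.492), and PARVA was at 0.60 (edgeR adjusted p = 0.0231). The gene that fell was SHARPIN, an inhibitor of integrin activation that binds alpha chain tails, named after its value was seen. It fell by 0.72 in log2 units (SE 0.17, edgeR adjusted p = 0.000854). After removal of both length and GC trends SHARPIN no longer passed (edgeR adjusted p = 0.232). With the length trend removed fewer passed: among beta subunits ITGB1 rose and ITGB7 fell, 2 collagen, 2 laminin and 3 RGD or alpha4 ligand genes rose, and 2 adaptors rose and 2 fell. The first counts of these lists stand against 16.5% of all tested genes called higher and 14.5% called lower, and those with the length trend removed against 8.36% and 8.92%.

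**Figure D5:**
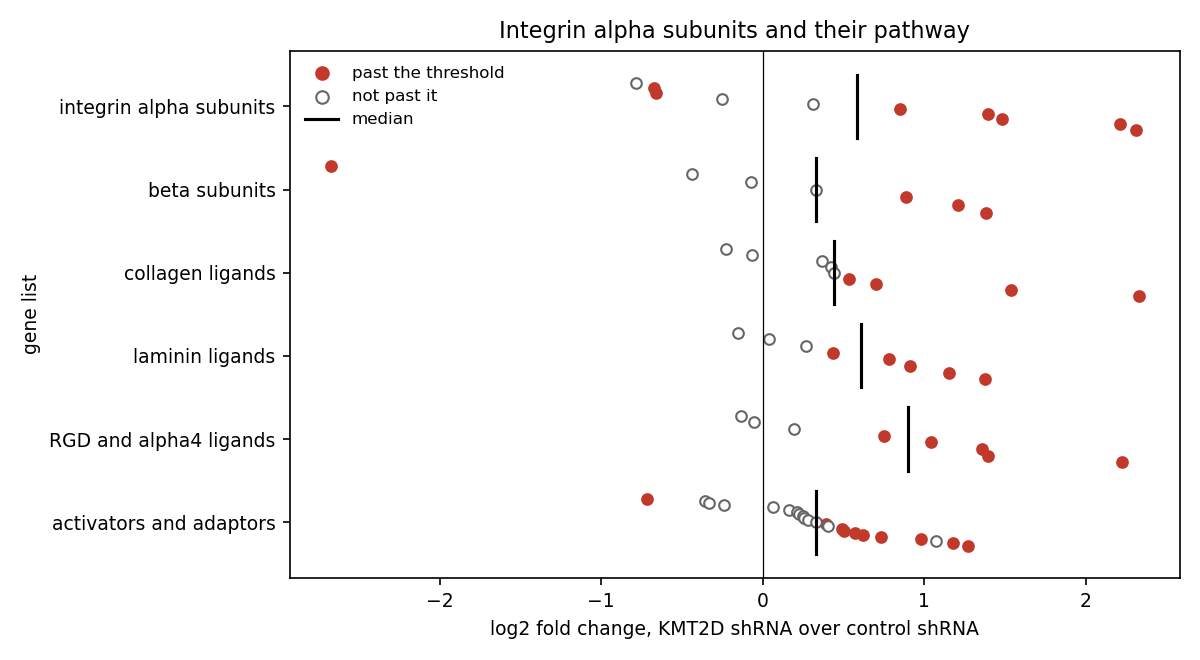
Log2 fold change (KMT2D shRNA over control shRNA) of the tested genes of each list, with integrin alpha subunits in the top row, filled where edgeR's adjusted p is under 0.05 and with the median as a bar. The alpha subunits hold calls on both sides of 0, the 3 ligand lists on the higher side only.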

How the data were processed

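Poly(A) RNA was captured on oligo(dT) beads, broken into fragments, primed at random and read on a BGISEQ-500, per the labels' protocols. The submitters' processing notes name hg19, HISAT and Bowtie2, and the counting tool is not given in the sources used here. The authors deposited 1 table per library with expected counts (estimated reads per gene, not normalized), FPKM scaled by length and library total, and the transcript length in bases, per the file headers. About 68% of expected counts were whole (67.8% to 68.0% by library, tested as exact integers). Genes not listed in a library were taken as 0.

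Expected counts were rounded to whole numbers. Symbols came from RefSeq by Entrez identifier (GRCh38.p14, names only: 18214 directly, 28 by transcript, 89 unmatched). Overlaps between genes came from GENCODE release 29 on GRCh38. Differences were tested with the quasi-likelihood F test of edgeR 4.0.16 (R 4.3.3) on group, after its default filter and TMM scaling, with 1 residual degree of freedom and Benjamini-Hochberg adjustment over all tested genes. The spread pooled across genes entered with 45.7 prior degrees of freedom, so each p rests mostly on that pooled spread. SE values derive from the F statistic, and CPM are TMM-scaled. Single libraries were compared on log2 CPM, prior count 2. Trends with length or GC content were removed as loess offsets (span 0.3) fitted on all tested genes in each library. Alternatives used DESeq2 1.42.0 and limma 3.58.1 on log2 FPKM with an intensity trend. Intervals are exact binomial at 95% and, like all counts here, cover counting error only, since amplified reads are not independent molecules. The fit was tested on simulated counts with few changed genes, the same spread for all genes and no length trend. These settings differ from the data, so that test does not bear on the calls given here. Fractional expected counts mean that a read can be divided between genes or transcripts. No hg19 coordinates are given.

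The members, lists and tests were chosen with earlier results of these data known. All members are named, and from each list those past the threshold with the largest changes, up to 3, beside partners and ligands of members named for their role.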

Additional observations from a re-analysis of the deposited data

How the results depend on the processing

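Over 13 alternatives with a test, none of the 10 genes changed direction: 108 of their 125 values kept their side of the threshold and 17 lost it. Many of the values kept could hardly have come out otherwise. A prior count of 2 in the fit left every p as it was, and counting ITGA1 with PELO hardly altered the other members. The ITGA1 value in that last alternative is the pair's 0.88 and not one of ITGA1 alone. ITGA7, ITGA10 and ITGAE had no call to lose, so all 17 losses fell on the 7 genes called at first. The 20 values without 1 labelled library have no test. Calls were lost for ITGA2 with the length trend removed, for ITGA2 and ITGA4 (edgeR adjusted p = 0.185 and 0.0506) with the length and GC trends removed, for ITGA3 without a filter on low counts (edgeR adjusted p = 0.0608), and for ITGA3, ITGA4 and ITGA5 with limma on log2(FPKM + 0.1) or log2(FPKM + 1). The cause was not tested. Over the alternatives the adjusted p ran from 2.8e-12 to 0.174 for ITGA1, 0.000164 to 0.185 for ITGA2, 0.000229 to 0.233 for ITGA3, 0.00128 to 0.174 for ITGA4, 0.000542 to 0.181 for ITGA5, 3.21e-10 to 0.174 for ITGA6 and 2.06e-07 to 0.174 for ITGAV, highest with unfiltered limma except for ITGA2, where it was highest with both trends removed. With length and GC trends removed 3 genes rose, and without a filter 1 fell. Limma called 4 of the 10 at either pseudocount, with 0 that fell, and 0 of 10 with no filter, where 6 (7 with edgeR) had an unadjusted p under 0.05. DESeq2 gave 7 of the 10 an adjusted p and called 6, ITGA1, ITGA2, ITGA6 and ITGAV higher and ITGA3 and ITGA5 lower. Over all genes edgeR called 4352 (2319 higher, 2033 lower), or 31.1% of 14016. The counts were 1897 (1048 and 849) without a filter, or 10.4% of 18258 tested genes. With the length trend removed they were 2422 (1172 and 1250), or 17.3% of 14016. With both trends removed they were 1519 (744 and 775), or 11.0% of 13757. DESeq2 called 1202 (746 and 456), or 11.5% of the 10483 genes to which it gave an adjusted p. Limma called 1068 (541 and 527) on log2(FPKM + 0.1), or 7.62% of 14016. On log2(FPKM + 1) it called 1623 (780 and 843), or 11.6% of 14016. With no filter limma called 0 (0 and 0) of 18331, where 4568 genes had an unadjusted p under 0.05. The median log2 fold change of the 10 genes was 0.24 with the length trend removed, 0.31 with both removed and 0.47 with limma on log2(FPKM + 1), filtered or not. Without library 1 or library 2, as a value with no test, it ran from 0.53 to 0.61. The median difference from genes of similar length was 0.21 with 200 neighbours and 0.24 with 50. KMT2D turned to -0.66 with the length trend removed and to -0.50 with both removed. No paired analysis was possible because the control has 1 library. Depth limited ITGA4, ITGA10 and ITGAE, with 40 counts or fewer in every library.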
